A study of Mus musculus with 4 samples.

Results

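ETS transcription factors share a DNA-binding domain that recognises a short GGA-containing core, and family members are told apart by the sequence around that core and by partner proteins. In the mammary gland Elf5 directs luminal progenitor cells towards the milk-producing alveolar fate, while its epithelial relatives Ehf, Elf3 and Spdef are used in many glandular and surface epithelia. Other ETS factors are shared by, or typical of, leukocytes and vessels. The values below describe 10 ETS genes, Elf5, Ehf, Elf3, Spdef, Elf1, Elf2, Elf4, Ets1, Ets2 and Elk3, chosen by symbol from 51826 gene rows of a mouse tumour RNA-seq table. All 10 were found, and all 10 were among the 21607 genes that passed the filter on low counts.

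The libraries came from C3-T+ mammary tumours of mice, 2 with genotype Elf5+/- (HET 1 and HET 2) and 2 with genotype Elf5+/+ (WT 1 and WT 2). All 4 tumours carry C3-T, which the labels name without giving its promoter, and the sources used here give neither age nor strain nor the deleted part of Elf5. Tumours were dissociated with collagenase and hyaluronidase, and tumour cells were enriched by a sort with antibodies to CD45, CD31 and TER119, surface proteins of leukocytes, endothelium and erythroid cells. Both HET titles carry the number 3211 (with the endings T1 and T2), whereas the WT titles carry 3210 and 4972. Nothing in the labels says that the HET tumours came from separate animals, so the p-values measure the spread between these samples only.

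Estimated counts totalled between 12695132 and 15307939 per library. WT 2 stood apart from the other libraries: 44.5% of genes had no count there, against 29.9% to 31.3% elsewhere. Luminal epithelial markers were abundant in all 4 libraries (10 of 10 detected), with summed levels of 2741 and 2598 CPM in HET and 3953 and 3378 CPM in WT. CPM are counts scaled to a common library size, here by the trimmed mean of M values (TMM). All 8 leukocyte markers and all 8 endothelial markers kept counts after the sort. Of 6 erythroid markers 3 were detected in every library. Erythroid markers summed to 5.52 and 15.7 CPM in HET 1 and HET 2, against 5.33 and 1.64 CPM in WT 1 and WT 2. Leukocyte markers summed to 381 and 301 CPM in HET 1 and HET 2, against 346 CPM in WT 1 and 14.6 CPM in WT 2. Endothelial markers summed to 376 and 608 CPM in HET 1 and HET 2, against 410 and 81.5 CPM in WT 1 and WT 2. Fibroblast markers (8 of 8 detected) summed to 4584 and 5690 CPM in HET 1 and HET 2, against 7594 and 23548 CPM in WT 1 and WT 2. Of 8 T and NK cell markers 5 were detected in every library, while Nkg7, Gzma and Klrd1 had no counts in WT 2 and Nkg7 had none in HET 2 either. Their sums were 37.4 and 46.2 CPM in HET 1 and HET 2, against 13.8 and 9.33 CPM in WT 1 and WT 2. In such bulk samples fewer cells of a type and less RNA per cell cannot be told apart.

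The recognition helix is the stretch of the ETS domain that enters the major groove, and a pair of arginines in it contacts the core. Its coding sequence is shown for each member, because it is a conserved part of these paralogs and therefore bears on how reads can be assigned to them. Each line gives 42 bases, 5′ to 3′ on the coding strand, from GENCODE M21 transcripts (GRCm38), with the codons of both core-contacting arginines in capitals.
Elf5: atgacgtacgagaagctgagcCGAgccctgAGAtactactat
Ehf: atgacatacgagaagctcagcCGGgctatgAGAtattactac
Elf3: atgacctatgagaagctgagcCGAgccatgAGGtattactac
Spdef: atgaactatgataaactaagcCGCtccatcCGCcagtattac
Elf1: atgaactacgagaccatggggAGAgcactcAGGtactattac
Elf2: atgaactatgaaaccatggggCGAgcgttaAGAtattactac
Elf4: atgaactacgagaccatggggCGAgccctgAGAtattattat
Ets1: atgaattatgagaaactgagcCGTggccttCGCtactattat
Ets2: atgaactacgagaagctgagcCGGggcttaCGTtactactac
Elk3: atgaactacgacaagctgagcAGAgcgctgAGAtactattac

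Elf3 matched Elf5 at 36 of these 42 bases, Ehf and Elk3 at 35, Elf4 and Ets2 at 33, Ets1 at 32, Elf1 at 29, Elf2 at 28 and Spdef at 26. In Elf5, Ehf, Elf3, Elf1, Elf2 and Elf4 an intron interrupts the helix after base 32, whereas in Spdef, Ets1, Ets2 and Elk3 the 42 bases lie within a single exon. In Elf5 the stretch lies at chr2:103449069-103449573 (plus strand), which includes an intron of 463 bases. In Ehf, on the minus strand of the same chromosome, it lies at chr2:103266862-103266998 with an intron of 95 bases. Runs of identical bases were short. Among the 45 pairs of members, the longest run of identical bases between coding sequences had a median of 12 bases. The exception was the pair Elf1 and Elf4, which share a run of 36 bases that enters the helix.
Shared run of Elf1 and Elf4: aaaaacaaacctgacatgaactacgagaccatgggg

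In every other pair of members the longest shared run was 19 bases or less, and it was at most 23 bases between a member and any of 16 further ETS genes examined. These lengths refer to coding sequence alone. The sources used here do not say how reads were shared between paralogs in the deposited estimates.

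None of the 10 ETS members passed the test between genotypes. Elf5, the gene under test, had 5.39 and 10.6 CPM in HET 1 and HET 2, against 35.6 and 4.70 CPM in WT 1 and WT 2. WT 1 alone was high, WT 2 was the lowest of all 4 libraries, and the genotypes overlapped. These CPM rest on 83 and 143 counts in HET and 448 and 66 counts in WT. The 2 WT libraries thus differed 7.58-fold from each other, and the HET libraries differed 1.97-fold (HET 2 over HET 1). The HET mean was 0.397 times the WT mean. On the log2 scale HET over WT was -1.33 ± 0.92 (SE, n = 2 per genotype, 95% interval -3.57 to 0.90), and Elf5 did not pass edgeR's quasi-likelihood test (adjusted p = 0.987). Without WT 2 the log2 fold change was -2.16 (adjusted p = 0.448, the lowest of 13 alternatives, whose highest was 1). Without WT 1 it was 0.76, so the sign rests on that library. Counts over the whole gene do not show whether the deleted part is absent from the HET transcripts.

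The order of the libraries was unchanged when Elf5 was set against epithelial marker content. Per 100 CPM of summed luminal epithelial markers, Elf5 had 0.197 and 0.409 CPM in HET 1 and HET 2, against 0.902 and 0.139 CPM in WT 1 and WT 2. Between the highest and lowest library, Elf5 spanned 2.88 units of log2 CPM (prior count 2), a wider range than that of 97.8% of 9930 protein-coding genes whose log2 CPM averaged 3 or more. Ets2, at the other extreme of the members, spanned 0.39 units, wider than 14.6% of those genes.

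**Figure D1:**
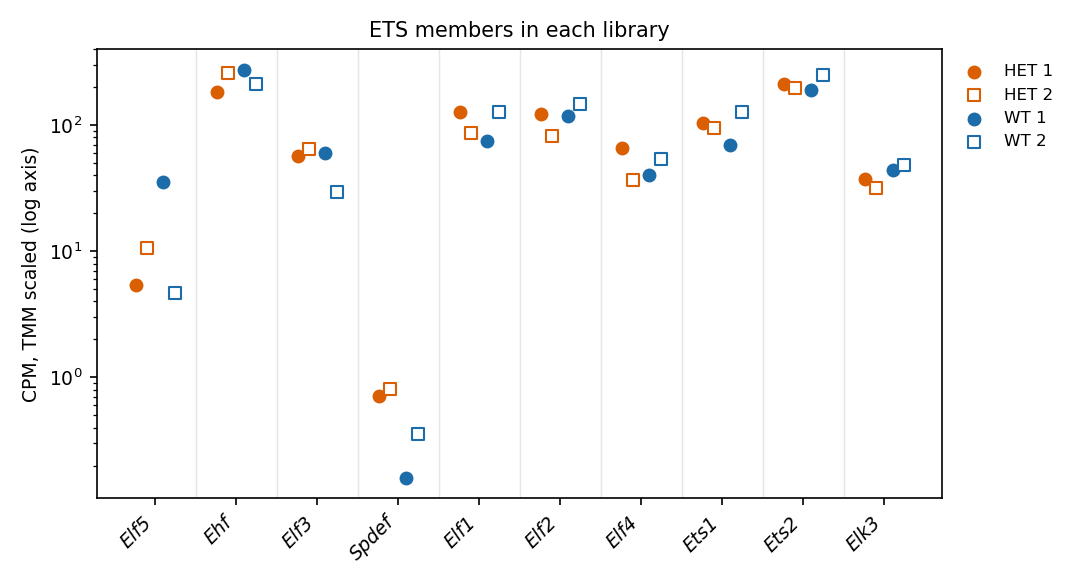
Level of each ETS member in each library, in CPM after TMM scaling on a log axis; filled symbols are replicate 1 and open symbols replicate 2, with HET left of WT. Elf5 is high in WT 1 alone (35.6 CPM), Spdef is below 1 CPM throughout, and the other 8 members lie between 29.6 and 276 CPM.

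Ehf, Elf3 and Spdef make up, with Elf5, the epithelial ETS genes called ESE here. Ehf, a factor of glandular and stratified epithelium, had 184 and 260 CPM in HET, against 276 and 211 CPM in WT. Its highest and lowest libraries, WT 1 and HET 1, belonged to different genotypes, but the groups overlapped (log2 fold change -0.13 ± 0.33, SE). Elf3, which is induced in epithelium by inflammatory signals, had 57.3 and 65.1 CPM in HET, against 60.5 and 29.6 CPM in WT. WT 2 alone was low. The log2 fold change of Elf3 was 0.44 ± 0.40 (SE) with all libraries, 0.02 without WT 2 and 1.05 without WT 1. Spdef, a factor of secretory luminal and goblet cells, was close to the detection limit, with 11 and 11 counts in HET and 2 and 5 counts in WT. Those counts correspond to 0.714 and 0.816 CPM in HET, against 0.159 and 0.356 CPM in WT. Each HET value exceeded each WT value (log2 fold change 1.53 ± 1.09, SE, adjusted p = 0.987), but Spdef passed the filter on low counts through its HET libraries alone, so this separation is not read further. A count of 0 would allow up to 3 counts, or 0.195 to 0.239 CPM, so the WT 1 value lies under that floor, and floors cover counting error only.

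Compared per kilobase of annotated exon, Ehf was the main ESE transcript. Ehf made up 54.9% and 59.7% of the ESE sum of CPM per kilobase in HET, against 59.7% and 72.6% in WT. Elf3 made up 43.1% and 37.5% in HET, against 32.9% and 25.6% in WT. Elf5 made up 1.53% and 2.31% in HET, against 7.32% and 1.53% in WT. Set directly against Ehf, its neighbour on chromosome 2, Elf5 stood at 2.78% and 3.87% of the Ehf level per kilobase in HET, against 12.3% and 2.11% in WT. Elf5 was thus a minor ETS transcript by this measure even in WT 1, the library where it was highest.

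The ELF group comprises Elf1 and Elf4, activators known from blood cells, and the widely expressed Elf2. Elf1 had 127 and 86.0 CPM in HET, against 74.3 and 127 CPM in WT. One library of each genotype was high and the other low (log2 fold change 0.08 ± 0.38, SE). Elf4 (X chromosome) had 66.2 and 36.9 CPM in HET, against 40.3 and 54.3 CPM in WT. It was high and low in the same libraries as Elf1 (log2 fold change 0.12 ± 0.38, SE). Elf1 and Elf4 are the pair with the 36-base shared run shown above, and whether shared reads enter this likeness was not tested. Elf2, Ets1, Ets2 and Elk3 showed the same order, with HET 1 above HET 2 and WT 2 above WT 1. That order was thus not particular to Elf1 and Elf4. Elf2 had 122 and 82.8 CPM in HET, against 118 and 147 CPM in WT (log2 fold change -0.37 ± 0.33, SE). Its groups overlapped because HET 1 lay above WT 1.

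Ets1 and Ets2 are paralogs whose activity is raised by RAS-MAPK phosphorylation. Ets1, prominent in lymphocytes and endothelium, had 105 and 94.5 CPM in HET, against 69.9 and 128 CPM in WT. The highest Ets1 level was in WT 2, the library with the lowest leukocyte and endothelial marker sums. Its log2 fold change of 0.01 ± 0.37 (SE) had a 95% interval of -0.89 to 0.91. Ets2 had 213 and 198 CPM in HET, against 189 and 249 CPM in WT. Both HET libraries lay between the WT libraries (log2 fold change -0.09 ± 0.30, SE, 95% interval -0.83 to 0.65). Elk3, a ternary complex factor that acts with serum response factor and can repress its targets, had 37.8 and 31.6 CPM in HET, against 44.3 and 48.0 CPM in WT. It was the single member for which each HET value lay below each WT value (log2 fold change -0.41 ± 0.29, SE, adjusted p = 0.987).

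Over the whole list the fold changes lay on both sides of 0. By edgeR, 0 of 10 members passed an adjusted p under 0.05, against 0 of 21607 genes (0%), and 0 of 10 had an unadjusted p under 0.05, against 817 of all genes (3.78%). DESeq2 and limma-voom also called 0 of 10 members, with 0.518% and 0% of genes called overall. Without WT 1 edgeR called 0 members and 3.04% of genes, and without WT 2 it called 0 members and 0.0417% of genes. Log2 fold changes of 5 members, Spdef with the limit given above among them, were above 0 and of 5 below. Their median was -0.04, beside 0.04 over all genes. Groups did not overlap with HET higher for 1 member, Spdef, with the limit given above (19.6% of all genes), and with HET lower for 1 member, Elk3 (15.9% of all genes). For 8 of the 10 members the log2 fold change was smaller than the wider of the log2 ratios within a genotype, the others being Elk3 and, with that limit, Spdef. The 95% intervals of all 10 spanned 0 and had a median width of 1.83 log2 units, so differences of moderate size were not resolved. For a single gene the smallest p that an exact two-sided permutation of 2 and 2 libraries allows is 0.333.

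**Figure D2:**
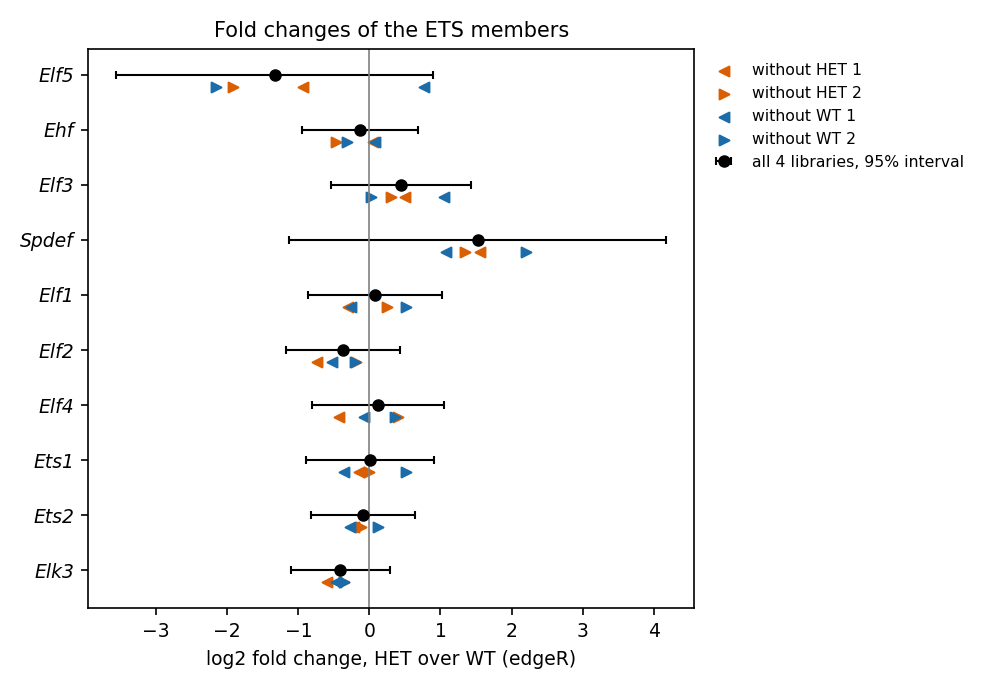
Log2 fold change of HET over WT for each member (horizontal axis, edgeR), with the 95% interval from all 4 libraries as a black bar and the estimate without each library as a coloured triangle. All 10 intervals span 0, and for Elf5 the estimate is 0.76 without WT 1 and -2.16 without WT 2.

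Levels between members were ordered by mean CPM per kilobase of annotated exon over the 4 libraries. Ehf (41.8 ± 7.67, SD, n = 4 libraries of both genotypes) and Ets2 (36.7 ± 4.53) led. Each was above the other in 2 libraries, so their order is not resolved. Elf3 followed at 23.95 ± 7.22, below Ets2 in every library. Elf1 (15.4), Elf2 (12.3), Ets1 (11.7), Elk3 (8.89) and Elf4 (8.04) came next, and each of these overlapped with its neighbours in the order. Elf5, at 2.40 ± 2.49, was below Elf4 in every library although their ranges overlapped. Spdef, at 0.222 ± 0.133, was below Elf5 in every library. With the longest annotated transcript as the length, Ets2 (54.6 CPM per kilobase) stood above Ehf (52.1). Then came Elf3 (25.35), Elf1 (24.5), Elf2 (19.8), Ets1 (19.6), Elk3 (9.60), Elf4 (8.12), Elf5 (4.32) and Spdef (0.266). Among all 26 ETS genes examined, Elf5 ranked 20 per kilobase of annotated exon and 18 per kilobase of longest transcript.

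Of the 16 other ETS genes 14 passed the filter. By edgeR 0 were called, against 0% of all genes, and 0 had an unadjusted p under 0.05, against 3.78% of all genes. DESeq2 and limma-voom called 0 as well, with 0.518% and 0% of genes called overall. Log2 fold changes of 7 were above and of 7 below 0 (median -0.02). Fev, with 7 counts in WT 1, and Etv2, with 3 counts in HET 1, had no counts elsewhere. The smallest p belonged to Etv1, of the PEA3 group that is transcribed in response to FGF and MAPK signalling. Etv1 had 7.66 and 27.0 CPM in HET, against 6.52 and 5.20 CPM in WT (log2 fold change 1.56 ± 0.66, SE, adjusted p = 0.987, unadjusted p = 0.054). Etv5, of the same group, had 43.3 and 180 CPM in HET, against 64.8 and 37.0 CPM in WT. Both were highest in HET 2, and without HET 2 their log2 fold changes were 0.33 for Etv1 and -0.28 for Etv5. Etv6, a repressor named after its values were seen, was the most abundant of the other ETS genes per kilobase. It had 87.4 and 182 CPM in HET, against 265 and 110 CPM in WT. As for Elf5, HET 2 was above HET 1 and WT 1 above WT 2. Ehf, Elf3, Etv1, Etv4, Etv5 and Spib showed the same order, so it was not particular to Etv6.

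Spi1, which encodes the myeloid factor PU.1, had 17.3 and 11.2 CPM in HET, against 20.2 and 0.427 CPM in WT (6 counts in WT 2). The 8 macrophage markers, all detected in every library, were likewise lowest in WT 2. They summed to 790 and 499 CPM in HET 1 and HET 2, against 753 CPM in WT 1 and 31.98 CPM in WT 2. That sum was highest in HET 1, whereas Spi1 was highest in WT 1. Adgre1, a defining macrophage marker, had 1 count in WT 2. Spi1 was called without WT 1, when WT 2 is the only WT library (log2 fold change 5.03, adjusted p = 0.0153, the lowest of 13 alternatives, whose highest was 1), and had a log2 fold change of 0.47 with all libraries and -0.50 without WT 2. Fli1, an ETS gene of vessels and blood that lies 93.4 kb from Ets1 on chromosome 9, had 20.5 and 13.5 CPM in HET, against 14.0 and 3.28 CPM in WT. Fli1 was low in WT 2 alone, where its neighbour Ets1 was at its highest. The leukocyte and endothelial marker sums given above were also lowest in WT 2, and their part in the Fli1 level was not tested. Erg, an endothelial ETS gene 115.5 kb from Ets2 on chromosome 16, had 10.8 and 11.6 CPM in HET, against 15.3 and 17.3 CPM in WT. Erg was lower in both HET libraries (log2 fold change -0.54 ± 0.36, SE, adjusted p = 0.987), a separation shared by 15.9% of all genes. The endothelial marker sum was lowest in WT 2, and its part in the Erg level was not tested.

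**Figure D3:**
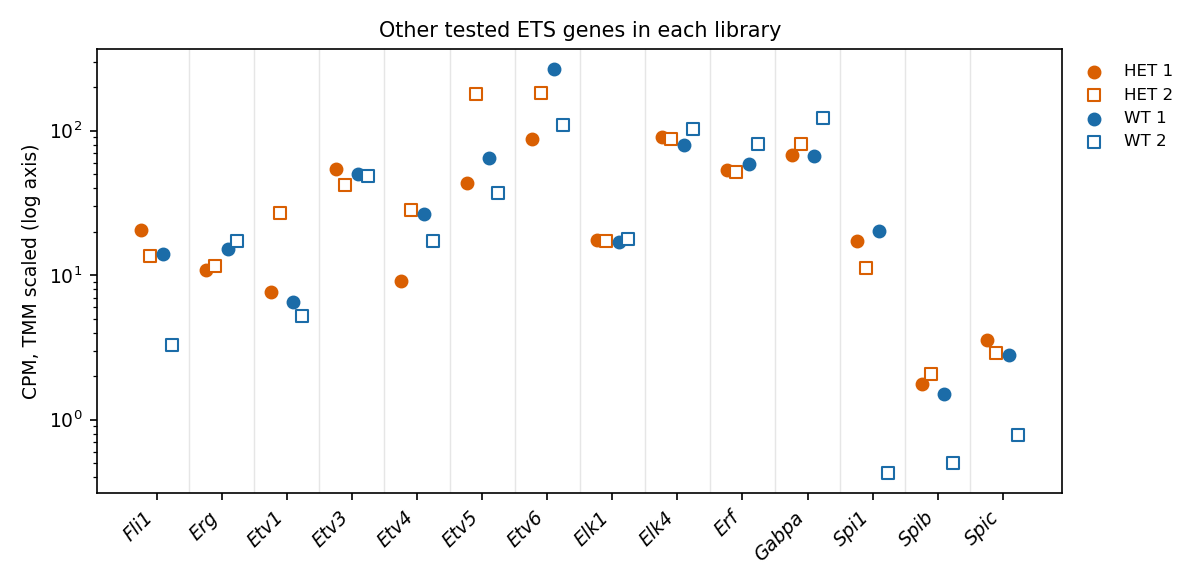
Level of the 14 other ETS genes that passed the filter in each library, in CPM after TMM scaling on a log axis; symbols are as for the members, with HET left of WT. Spi1 (0.427 CPM), Fli1 (3.28 CPM), Spib (0.499 CPM) and Spic (0.783 CPM) are low in WT 2 alone. Etv1 and Etv5 are highest in HET 2 (27.0 and 180 CPM).

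Elf5 (chromosome 2, 103411688 to 103450989, GRCm38, plus strand) and Ehf (103263433 to 103303278, minus strand) are transcribed away from each other across a gap of 108.4 kb. Within 500 kb of Elf5 lie 7 other protein-coding genes, Pdhx, Apip, Ehf, Cat, Abtb2, Nat10 and Caprin1. By edgeR 0 of these 7 were called, against 0% of all genes, and 0 had an unadjusted p under 0.05, against 3.78% of all genes. DESeq2 and limma-voom called 0 as well, with 0.518% and 0% of genes called overall. In all 7 the genotypes overlapped, as they did in 13940 of the 21607 genes tested. Their log2 fold changes lay between -0.44 and 0.16, with a median of -0.01. Caprin1, an RNA-binding protein of stress granules, had the smallest p, with 227 and 360 CPM in HET, against 486 and 310 CPM in WT (log2 fold change -0.44 ± 0.39, SE). Abtb2, an ankyrin repeat and BTB domain protein, had 26.3 and 37.5 CPM in HET, against 28.2 and 28.8 CPM in WT. Apip, an enzyme of methionine salvage, had 2.01 and 6.604 CPM in HET, against 6.52 and 3.99 CPM in WT. The 7.58-fold gap between WT 1 and WT 2 at Elf5 was not shared by Ehf, where the same ratio was 1.31.

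**Figure D4:**
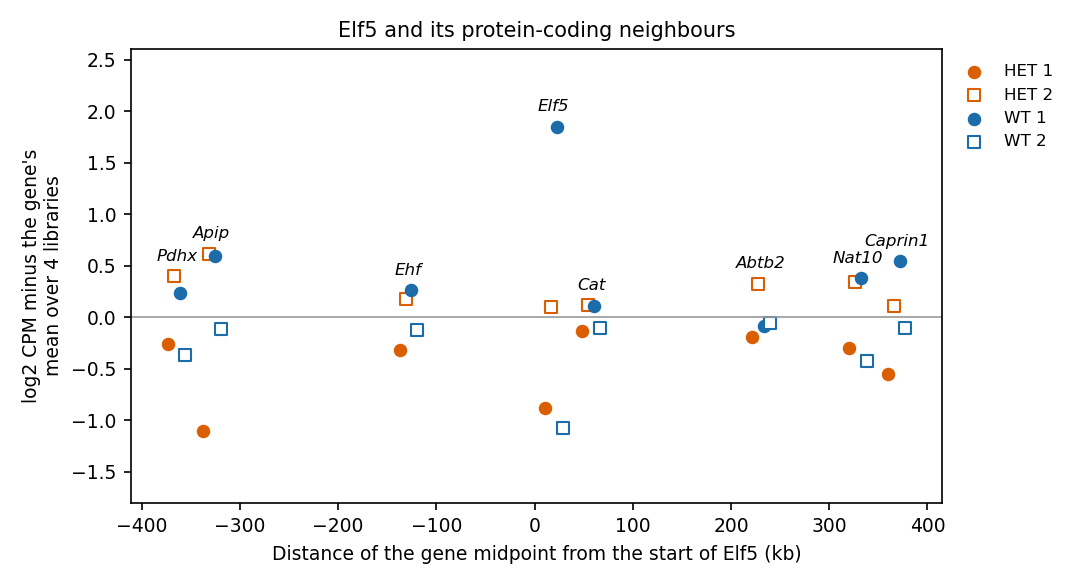
Log2 CPM of Elf5 and its 7 protein-coding neighbours in each library, minus the mean of each gene over the 4 libraries, against the distance of the gene midpoint from the start of Elf5 in kb; symbols are as for the members and are set slightly side by side for legibility. At Elf5 WT 1 lies far above the other libraries, while at Ehf the WT 1 level is 1.31 times that of WT 2.

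Genes of the alveolar programme in which Elf5 acts were examined as a list of 14 milk and prolactin-STAT5 genes, of which 9 passed the filter. By edgeR 0 of the 9 were called, against 0% of all genes. Glycam1 and Csn3 had an unadjusted p under 0.05 (2 of 9, Glycam1 with the limit given below, against 3.78% of all genes). Limma-voom called 0 (0% of all genes) and DESeq2 called 1, Glycam1 (0.518% of all genes). Glycam1, which encodes a mucin-like milk component, had 18 and 280 counts in HET and 1 and 0 counts in WT (DESeq2 adjusted p = 0.00136, edgeR adjusted p = 0.987, other alternatives between 4.73e-11 and 1). It passed the filter through its HET counts alone. Csn3, the kappa casein gene, had 48.4 and 520 CPM in HET, against 13.3 and 3.35 CPM in WT (log2 fold change 5.10 ± 1.28, SE, edgeR adjusted p = 0.987). HET 2 was far above HET 1 for both, and without HET 2 the log2 fold change of Csn3 was 2.51 (adjusted p = 1, among alternatives between 1.93e-21 and 1). Stat5b, a transducer of prolactin signals, had 35.2 and 38.7 CPM in HET, against 25.3 and 23.1 CPM in WT. Of the 9 tested genes, 8 had log2 fold changes above 0, Glycam1 with its limit among them, against 11392 of all 21607. The casein gene Csn2 alone was below 0. Csn2 had 2.21 and 1.11 CPM in HET, against 7.40 and 0.499 CPM in WT. Groups did not overlap with HET higher for 5 genes, Glycam1 with its limit among them (19.6% of all genes), and overlapped for 4.

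The protein-coding genes whose profile over the 4 libraries was most like that of Elf5 were C2cd5, Atp6v1c2, Enpp2, Epha7 and Pmm1. Likeness was the root mean square difference of log2 CPM after centring each gene on its own mean, over 4 libraries and 9930 genes, and was 0.22 for C2cd5 and 0.32 to 0.36 for the other 4. C2cd5, a C2 domain protein of membrane traffic, had 32.1 and 56.0 CPM in HET, against 268 and 24.6 CPM in WT. Enpp2, which encodes autotaxin, had 11.0 and 12.1 CPM in HET, against 52.3 and 9.19 CPM in WT. All 5 were highest in WT 1, which their choice by likeness to Elf5 favoured. No other ETS member was close: Ehf, the nearest, differed from Elf5 by 0.95 and ranked 1380 of these genes, and Elf3 by 0.96. With 4 libraries this likeness describes the samples and carries no test.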

How the data were processed

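The authors deposited estimated counts per gene as whole numbers, made with Salmon; the build was GRCm38.p5, per the submitters' processing notes. No version, transcript annotation or strandedness is stated in the sources used here. Of 51826 identifiers, 51633 matched GENCODE M21 (GRCm38), which gave symbols, coordinates and lengths. Groups came from the source names. The comparison of HET over WT used edgeR 4.0.16 under R 4.3.3, with filterByExpr, TMM scaling and the quasi-likelihood F test, genotype as the only term and Benjamini-Hochberg adjustment over 21607 genes. Biological variation was 0.46 (common coefficient), on 2 residual plus 4.08 prior degrees of freedom. Standard errors are the log2 fold change over the root of F. The procedure was tested on simulated data. DESeq2 1.42.0 and limma-voom (limma 3.58.1) were alternatives, with other scalings and filters and each library left out. The members and lists were chosen with earlier results of these data known. Named besides the members were Fli1, Erg, Spi1 and the 4 other ETS genes of smallest p (Etv1, Etv5, Erg and Fli1, the last 2 under both parts), 3 alveolar and 3 neighbouring genes of smallest p, the 5 profiles most like Elf5, and cell type markers at or near 0. Etv4, Etv6, Fev, Etv2, Spib, Spic, Csn1s1 and Csn2 were named after their values were seen.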

Additional observations from a re-analysis of the deposited data

How the results depend on the processing

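Under all 13 alternatives 0 ETS members and 0 genes near Elf5 were called. The main fit called 0 of all genes. So did every alternative except no filter, DESeq2 and the fits without WT 1 or WT 2. Where no gene was called, a count of 0 in either list was fixed in advance. Without 1 library, the log2 fold change of Elf5 lay between -2.16 and 0.76, and it was positive only without WT 1. A lone library was taken to vary as the other genotype does. Calls over all genes were 324 with no filter beyond 1 count and 129 by DESeq2, and between 0 and 657 without 1 library (657 without WT 1, 9 without WT 2). Alveolar calls were 3 with no filter beyond 1 count (Csn1s1, Csn3 and Glycam1), 1 by DESeq2, and between 0 and 1 without 1 library (Csn1s1 without WT 1). Calls among other ETS genes lay between 0 and 1 (Spi1, without WT 1). Signs near 0 turned, with the cause not tested. Scaling to luminal epithelial markers, which moved the median of all genes to 0.26, against 0.04 with TMM, put Ehf at 0.10 and Ets2 at 0.11. With no filter Elf1 and Ets1 stood at -0.036 and -0.108, by DESeq2 at -0.013 and -0.088, and by relative log expression Ets1 stood at -0.056. Without 1 library Ehf lay between -0.46 and 0.073, Elf1 between -0.30 and 0.52, Elf4 between -0.42 and 0.41, Ets1 between -0.36 and 0.51, and Ets2 between -0.28 and 0.12. Elf3, Spdef, Elf2 and Elk3 kept their sign under every alternative that gave a value; Spdef had none with a filter of 1 CPM in 2 libraries. The fit on protein-coding genes alone was added after seeing the data and turned no member. No paired analysis was possible because the replicate numbers only name the samples. The wide spread within each genotype, with 2 libraries each, limits what could be detected.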
